A study of Homo sapiens with 6 samples.

Results

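The regions described here are close Brpf2 peaks, that is, peaks whose nearest other peak on the same chromosome lay 2 kb or less away, measured from edge to edge. They were chosen from the peak positions alone, on chromosomes 1 to 22, and numbered 959 of 11513 autosomal peaks (8.33%, exact 95% interval 7.83 to 8.85%). The whole list held 11874 peaks. The data come from chromatin immunoprecipitation followed by sequencing (ChIP-seq) in untreated RKO cells. RKO is an established line from a human colon carcinoma. Of 6 samples (ING2, ING5, Brpf2, H3K4me3, H3 and rabbit IgG, 1 of each), the Brpf2 sample was used and the other 5 were not analysed here. With 1 library and no replicate, and with members chosen by their positions, every value below is a description and nothing was tested. Intervals cover counting error only, and they are too narrow because neighbouring peaks are not independent. All positions are in hg18, counted from 1. No gene annotation or sequence of that build was used, so no gene is named and no bases are shown.

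Brpf2, also called BRD1, is a scaffold protein with PHD fingers, a bromodomain and a PWWP domain. It holds a MYST-family acetyltransferase together with an ING protein, and these complexes acetylate histone H3. ING proteins carry a PHD finger that binds H3K4me3, the histone mark of active promoters. In a peak list each interval is a stretch in which the caller found reads enriched, and the list does not record whether neighbouring intervals belong to 1 bound region. Whether close peaks are separate sites was not tested.

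Most close peaks came in pairs. The 959 peaks formed 450 runs, a run being a chain of peaks each 2 kb or less from the next. Of these runs, 405 were pairs (810 peaks), 33 held 3 peaks, 10 held 4 and 2 held 5. Runs of 3 or more held 149 close peaks, or 15.5% (exact 95% interval 13.3 to 18.0%). Beyond its own members, the nearest outside peak of a run was a median of 37869 bp away, and for 361 runs (80.2%) it was more than 10 kb away. Over all autosomal peaks the nearest neighbour lay over 10 kb away for 76.9%. That share is not a like measure, since it counts the close peaks, which the rule keeps within 2 kb of a neighbour. Of the peaks outside runs, 8857 had the nearest neighbour over 10 kb away and 1697 at 2 to 10 kb.

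The gaps inside runs were concentrated at very short distances. There were 509 gaps, with a median of 360 bp (exact binomial 95% interval 317 to 431 bp) and quartiles of 97 and 1011 bp. The smallest was 1 bp and the largest 1992 bp. Gaps of 250 bp or less numbered 209 (41.1%, exact 95% interval 36.8 to 45.5%), and 79 of these were 50 bp or less. The next 250 bp held 81 gaps and the 250 bp after that 45. Between 1 and 2 kb the count was 28 to 38 per 250 bp. It stayed near that level beyond the limit of the rule, at 20 to 48 per 250 bp between 2 and 10 kb, with a median of 30.5. The counts thus stood above the level of longer gaps mainly below 500 bp, and the limit at 2 kb did not fall at a step.

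**Figure D1:**
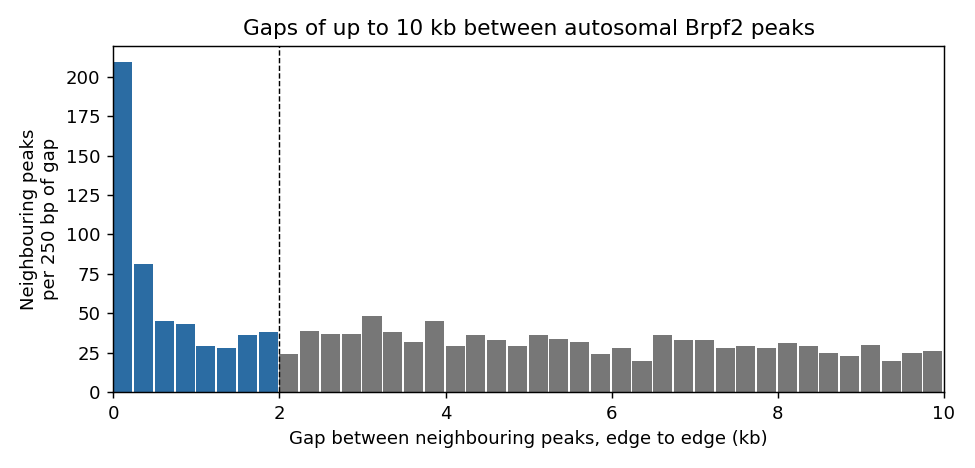
Number of neighbouring autosomal Brpf2 peaks (y axis) by the gap between them in kb (x axis), in bins of 250 bp. Blue bars are gaps within the 2 kb limit (dashed line) and grey bars are longer gaps. The first bin holds 209 gaps, and the bins from 2 to 10 kb hold 20 to 48.

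The pairs with the smallest gaps show what lies at this end of the scale. On chromosome 7 the peak from 44852021 to 44852896, which is 876 bp wide and scored 99.9, was separated by 1 bp from the peak that ends at 44855299, which is 2402 bp wide and scored 585. The score was assigned to each peak by the authors' caller on a scale the file does not state. It is used here only to set peaks of this list side by side. On chromosome 14 a peak of 1071 bp from 76992851 (score 221) lay 2 bp from one of 2747 bp (score 1640). A gap of 3 bp was found on chromosome 5 from 68698837 to 68702606, between a peak of 995 bp (score 79.6) and one of 2772 bp (score 1424). The same gap was found on chromosome 20 from 13712038 to 13715884, between peaks of 701 bp (score 58.3) and 3143 bp (score 1884). The fifth pair, on chromosome 19 from 1810872 to 1817107, joined a peak of 4186 bp (score 3100) and one of 2047 bp (score 236) across 3 bp. In each of these 5 pairs the wider member had the higher score, with ratios of the 2 scores between 5.85 and 32.3. A ratio of scores describes the listed values and is no ratio of read numbers.

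Just inside the limit, gaps of 1992 bp separated peaks of 2813 bp (score 915) and 1748 bp (score 582) on chromosome 12 from 51974472 to 51981024, and peaks of 1009 bp (score 83.4) and 2573 bp (score 801) on chromosome 16 from 386951 to 392524. A gap of 1984 bp lay on chromosome 5 from 54557646 to 54566761, between peaks scoring 750 and 3100. Just outside it, a gap of 2011 bp lay on chromosome 11 from 70835968 to 70843631 (scores 761 and 353). One of 2012 bp lay on chromosome 6 from 150108569 to 150114599 (528 and 1116), and one of 2021 bp on chromosome 19 from 17277088 to 17282604 (735 and 334). The scores of these peaks ran from 83.4 to 3100 inside the limit and from 334 to 1116 outside it.

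Close peaks were narrower and lower in score than peaks with a neighbour at 2 to 10 kb. Their median width was 2017 bp (exact binomial 95% interval 1932 to 2121 bp), against 2378 bp (2309 to 2441 bp) for the 1697 autosomal peaks whose nearest neighbour was over 2 and up to 10 kb away. The median score was 358 (309 to 409) against 591 (543 to 633). For all autosomal peaks these medians were 2352 bp and 630. Positions, widths and scores come from the same caller and library, so these differences were not tested.

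The difference lay mainly at the low end. A width under 1 kb was found for 13.0% of the close peaks (125 peaks, exact 95% interval 11.0 to 15.3%) and for 2.83% of those at 2 to 10 kb (48 peaks, 2.09 to 3.73%). Scores under 100 were found for 22.6% (20.01 to 25.4%) and 11.1% (9.68 to 12.7%). Over all autosomal peaks, 4.02% were under 1 kb wide and 10.3% scored under 100. At the top, 92 close peaks, or 9.59% (7.80 to 11.6%), scored 3100 or more, the level at which the scores of the list pile up. This share was 8.46% for all autosomal peaks and 9.90% for those at 2 to 10 kb, so it was near that of the rest of the list. Widths of 5 kb or more were found for 8.97% of close peaks (86 peaks), 6.60% of those at 2 to 10 kb and 4.61% of all.

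Read the other way, the narrowest and the widest peaks were the ones most often close to another. Of 463 autosomal peaks under 1 kb wide, 27.0% (exact 95% interval 23 to 31.3%) were close. The share was 9.55% (8.61 to 10.6%) between 1 and 2 kb, 5.94% (5.24 to 6.69%) between 2 and 3 kb and 5.68% (4.83 to 6.62%) between 3 and 5 kb. It was 14.0% (11.1 to 17.4%) between 5 and 10 kb, and for the 39 peaks that reached 10 kb it was 43.6% (17 peaks, 27.8 to 60.4%). For a neighbour at 2 to 10 kb the share was 10.4% (7.74 to 13.5%) under 1 kb and between 14.5 and 14.7% in the classes from 1 to 5 kb. Between 5 and 10 kb wide it was 20.5% (17.0 to 24.4%), and at 10 kb or more it was 28.2% (15.0 to 44.9%), so wide peaks had higher shares at both distances.

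**Figure D2:**
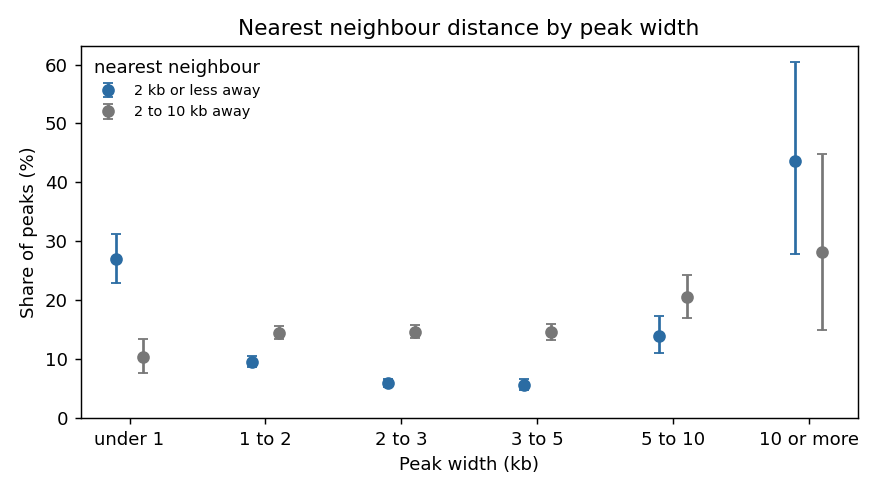
Share of autosomal peaks in percent (y axis) by peak width in kb (x axis). Blue points are peaks with the nearest neighbour 2 kb or less away, grey points those with it 2 to 10 kb away, and bars are exact 95% intervals. The blue points are at 27.0% under 1 kb, fall to 5.68% at 3 to 5 kb and rise to 43.6% at 10 kb or more.

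Scores were set side by side within width classes, since wide peaks score higher. Between 2 and 3 kb the median score was 657 for 252 close peaks and 643 for 623 peaks at 2 to 10 kb. Between 1 and 2 kb it was 155 and 178, and under 1 kb it was 64.7 and 61.6. Between 3 and 5 kb the close peaks were lower, 1309 (151 peaks) against 1696 (390 peaks). From 5 kb up both medians were 3100.

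The members of a pair differed in size to varying degrees, and in 162 of 405 pairs (40%) the wider was 2 or more times as wide as the narrower. The wider member had a median width of 2727 bp (exact binomial 95% interval 2626 to 2852 bp), with an upper quartile of 3787 bp. The narrower had a median of 1405 bp (1322 to 1515 bp). The median score was 912 (747 to 1112) for the wider and 133 (116 to 155) for the narrower member. The wider member also had the higher score in 334 pairs (82.5%, exact 95% interval 78.4 to 86.0%), the lower score in 68 and the same score in 3.

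The 734 comparison pairs were peaks that were each other's nearest neighbour at over 2 and up to 10 kb. Their wider members had medians of 2933 bp and a score of 1026, near those of close pairs. Their narrower members had medians of 1901 bp and a score of 306, above those of close pairs. The wider member had the higher score in 580 of them (79.0%, exact 95% interval 75.9 to 81.9%), and this interval overlaps that of close pairs. It was 2 or more times as wide as the narrower in 169 (23%). The median ratio of the 2 widths was 1.73 (1.67 to 1.88) in close pairs and 1.47 (1.42 to 1.52) in the comparison pairs, and the median ratio of the 2 scores was 4.71 and 2.66. A ratio of wider to narrower is above 1 by construction, so only the 2 sets can be set against each other.

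Among the gap classes compared, this imbalance was largest at the shortest gaps. In the 65 pairs with a gap of 50 bp or less, the wider member had a median score of 1561 and the narrower one of 91.96. The median width ratio was 2.47 (2.04 to 2.79) and the median score ratio 10.5 (6.41 to 17.9). In 61 of these 65 pairs the wider member had the higher score, and in 23 of them 1 member scored 3100 or more. In the 64 pairs with a gap over 1.5 kb, the median scores were 665 and 298, the width ratio was 1.45 (1.35 to 1.58) and the score ratio 2.04 (1.47 to 3.23). The last values resemble those of the comparison pairs with a gap of 2 to 3 kb, for which the ratios were 1.44 and 2.49. The gap classes were set after the data were seen.

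**Figure D3:**
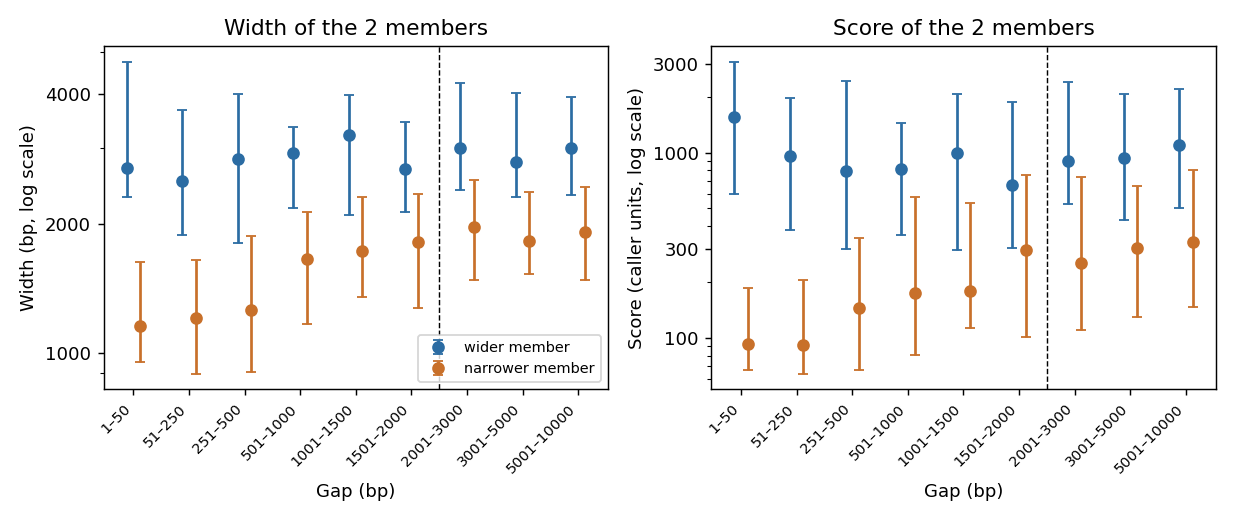
Width in bp (left, log scale) and score in caller units (right, log scale) of the wider (blue) and narrower (orange) member of a pair, by gap in bp. Points are medians, bars run from the lower to the upper quartile, and classes right of the dashed line are comparison pairs. The median score of the narrower member is 91.96 in the class of shortest gaps and 298 in the last class left of the dashed line.

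The scores of the first and second peak by coordinate were negatively correlated at short gaps. Over the 171 pairs with a gap of 250 bp or less, Spearman's rho between the score of the first and of the second peak was −0.50, while over the 734 comparison pairs it was 0.05. Very unequal partners that stand in either order give a negative value by themselves. The value therefore restates the imbalance above and does not show that 1 score falls as the other rises. Partners share a library and a caller and the points are sites, so these are descriptions. The wider member had the lower coordinate in 195 of 405 pairs (48.1%, exact 95% interval 43.2 to 53.1%) and in 360 of 734 comparison pairs (49.0%).

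Pairs in which both peaks scored high were few. Both members reached 3100 in 3 of 405 close pairs (0.741%) and in 14 of 734 comparison pairs (1.91%). These 3 lay on chromosomes 6, 7 and 12. The first ran from 31902234 to 31914386 (peaks of 5801 and 4741 bp, gap 1611 bp), the second from 150407137 to 150419021 (4981 and 5736 bp, gap 1168 bp) and the third from 12760572 to 12771552 (5254 and 5407 bp, gap 320 bp). The next by the lower score were on chromosome 12 from 108916424 to 108924282 (scores 2060 and 2063) and on chromosome 3 from 188937111 to 188946421 (1952 and 2403). In 71 close pairs (17.5%) 1 member alone reached 3100, against 116 comparison pairs (15.8%).

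The most unequal pairs set a broad peak beside a short low one. On chromosome 17 from 60073840 to 60091904, a peak of 971 bp (score 71.4) stood 639 bp before one of 16455 bp (score 3100), a width ratio of 16.9. On chromosome 12 from 74706578 to 74715665 the widths were 8032 and 804 bp, and on chromosome 1 from 207882852 to 207896561 they were 10969 and 1155 bp. The remaining 2 of the 5 most unequal pairs were both on chromosome 9, from 5437778 to 5449902 (1265 and 10664 bp) and from 21574423 to 21583864 (8325 and 1037 bp). The broad member scored 3100 or more in all 5, and the short one between 54.1 and 103.

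The pair of widest span departed from this pattern. It lay on chromosome 7 from 130229276 to 130298266, where a peak of 54699 bp, the widest of the list, scored 994 and its neighbour of 14278 bp, 14 bp away, scored 3100. The next by span were on chromosome 1 from 33651233 to 33670162 (18930 bp, scores 1030 and 3100), the pair on chromosome 17 named above, chromosome 11 from 65411183 to 65428464 (17282 bp, scores 344 and 3100) and chromosome 5 from 98131463 to 98148266 (16804 bp, scores 3100 and 131).

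Read as single stretches, runs would add broad domains to the list. The median run spanned 5385 bp (quartiles 3817 and 7177 bp), and a median of 91.4% of that span was covered by its peaks. A span of 5 kb or more was reached by 248 runs, although only 77 had a single peak that wide. A span adds the widths and gaps of a run, so it exceeds the widest peak by construction. Outside runs, 445 autosomal peaks were 5 kb or wider. For 10 kb the numbers were 49 runs by span, 16 by their widest peak, and 22 peaks outside runs. Close peaks together covered 2.51 Mb, or 8.38% of the sequence under autosomal peaks, and the gaps inside runs added 315 kb.

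Long runs took several forms. Both runs of 5 lay on chromosome 7. From 84477119 to 84490147 the peaks scored 799, 756, 958, 66.7 and 62.5 in order, with gaps of 379 to 673 bp. From 83831701 to 83839768 they scored 262, 548, 106, 408 and 63.7, with gaps of 26 to 147 bp. Neither held a peak at 3100.

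Of the 10 runs of 4 peaks, 5 had a member at 3100 or more. The widest was on chromosome 2 from 36634024 to 36660476 (26453 bp), where a peak of 1117 bp (score 89.0) was followed by peaks of 7124 bp (3100), 7408 bp (1334) and 9550 bp (3100). On chromosome 10 from 31308694 to 31333904, a peak of 15347 bp scoring 3100 was flanked by 3 peaks scoring between 65.6 and 118. The run on chromosome 21 from 42232523 to 42253017 was alike, with a peak of 13035 bp scoring 3100 and flanking scores of 54.9 to 196. On chromosome 19 from 1215736 to 1228551 a peak scoring 3100 stood last, after peaks scoring 103, 440 and 65.1. The run on chromosome 5 from 121324777 to 121336541 had a highest score of 1728. The second run on chromosome 10, from 22644374 to 22655816, had a highest score of 3006.

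The 3 widest runs of 3 each opened with their widest peak, which scored 3100. Chromosome 9 held 2 of them, from 135201288 to 135220283 and from 21538076 to 21556088. The other lay on chromosome 12 between 64311283 and 64328967. Over all 33 runs of 3, the widest peak was the middle one in 11 and the highest-scoring peak was the middle one in 8.

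**Figure D4:**
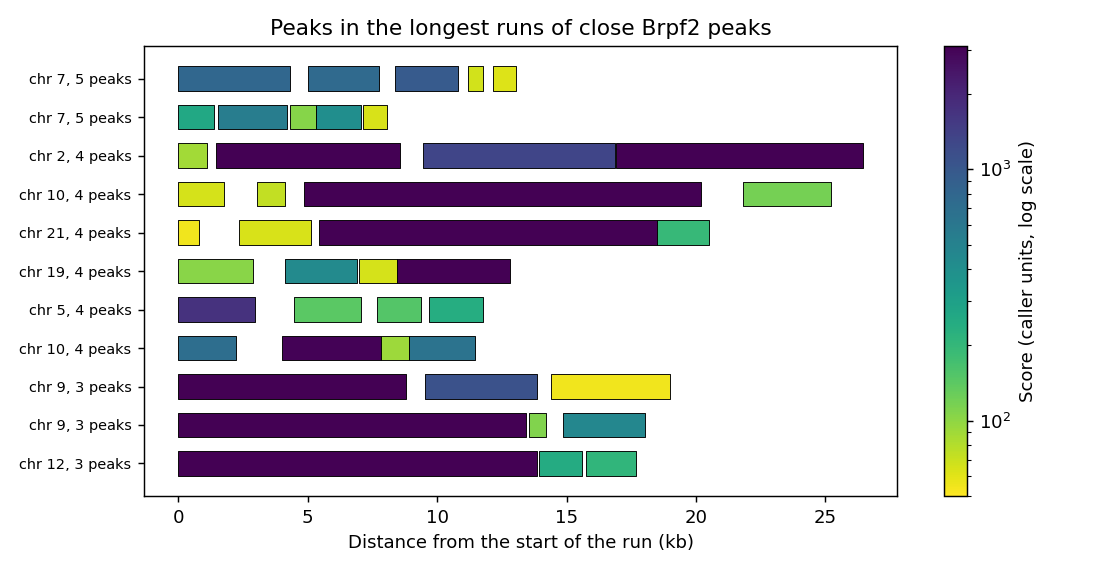
Peaks (boxes, to scale) in 11 runs of close Brpf2 peaks, drawn by distance in kb from the start of each run (x axis), 1 run per line. Colour is the caller's score on a log scale, from yellow (50) to dark blue (3100). The 2 runs of 5 on chromosome 7 hold no peak at 3100, and the run on chromosome 2 spans 26453 bp.

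A smaller share of close peaks than of peaks at 2 to 10 kb lay in crowded stretches. Window counts and nearest distances come from the same peak positions. Crowded windows shorten the distances by construction, so the contrast is a description and was not tested. Windows of 1 Mb with 20 or more peaks held 176 close peaks, or 18.4% (exact 95% interval 16 to 21.0%), beside 14.6% of all autosomal peaks and 34.7% (32.4 to 37.0%) of those at 2 to 10 kb. Within the close pairs, gaps of 250 bp or less had 17 of 171 pairs in such windows (9.94%), and gaps over 1.5 kb had 21 of 64 (32.8%). Counting over all peaks, a nearest neighbour within 250 bp was found for 1.12% of peaks in windows of 1 or 2 peaks (exact 95% interval 0.536 to 2.04%). The share was 3.803% in windows of 3 to 5 peaks (3.10 to 4.61%), 3.96% in those of 6 to 9, 4.03% in those of 10 to 19 and 2.62% (1.91 to 3.50%) in those of 20 or more, so it did not follow density in 1 direction. A nearest neighbour over 250 bp and up to 2 kb away went from 4.11% (3.38 to 4.95%) in windows of 3 to 5 peaks to 7.87% (6.62 to 9.26%) in windows of 20 or more. One at 2 to 10 kb went from 5.88 to 35.1% between the same windows. Leaving aside the members of the own run, 24.5% of close peaks had no other peak within 100 kb. For peaks at 2 to 10 kb, leaving aside the nearest neighbour, the share was 9.61%. For the 8857 peaks with the nearest neighbour over 10 kb away it was 27.8% (26.9 to 28.8%), so the share of close peaks was near that of most of the list. What is left aside differs between the groups, so these are not like measures.

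By chromosome, the share of peaks that were close ranged from 3.64 to 11.6%. Chromosome 19 had the highest, with 95 of 818 peaks (11.6%, exact 95% interval 9.498 to 14.0%), followed by chromosome 7 with 64 of 616 (10.4%, 8.09 to 13.1%) and chromosome 10 with 48 of 482 (9.96%, 7.43 to 13.0%). The lowest were chromosome 21 with 4 of 110 (3.64%, 1.00 to 9.05%), chromosome 22 with 13 of 294 (4.42%, 2.38 to 7.44%) and chromosome 9 with 30 of 525 (5.71%, 3.89 to 8.06%). The interval lay above the autosomal share on 1 chromosome (19) and below it on 2 (9 and 22). For chromosome 19 this did not hold without 1 block, as given below. Among 22 intervals that are too narrow, some can miss the autosomal share by counting error alone. An interval that covers this share does not settle the order among chromosomes, which was not tested. Over the 22 autosomes, the share of close peaks had a Spearman's rho of 0.12 with the number of peaks per Mb, and the share of peaks at 2 to 10 kb had 0.78. Both measures share the number of peaks, and the values are descriptions.

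**Figure D5:**
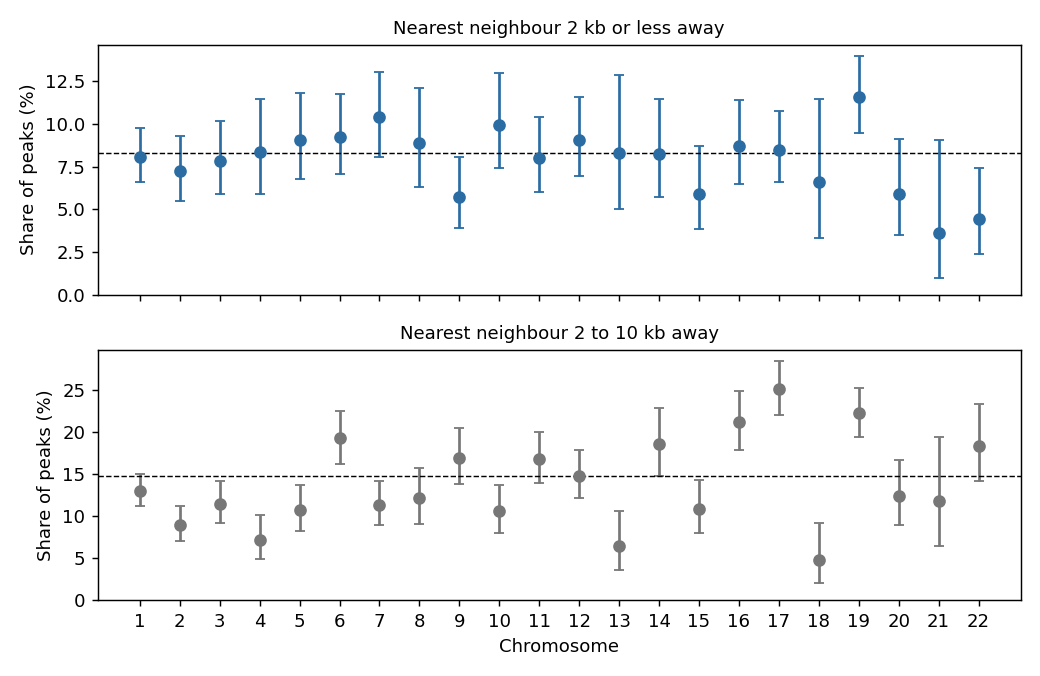
Share of the peaks of each autosome in percent (y axes) with the nearest neighbour 2 kb or less away (top) and 2 to 10 kb away (bottom). Bars are exact 95% intervals and dashed lines are the shares over all autosomes, 8.33 and 14.7%. Chromosome 19 is highest in the top panel with 11.6%, and chromosome 17 in the bottom panel with 25.1%.

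On each of the 3 highest chromosomes, the share was also taken without 1 block rich in close peaks. Without the block of 5 Mb from its start, chromosome 19 had 71 of 694 peaks close (10.2%, exact 95% interval 8.08 to 12.7%), and its interval no longer lay above the autosomal share. Without 110000001 to 115000000, chromosome 10 had 35 of 457 (7.66%, 5.39 to 10.5%). The change was larger on chromosome 7. There, between 80000001 and 85000000, 28 of 33 peaks were close (84.8%), in 7 runs of 3 or more and 1 pair, and these 7 were all of the runs of 3 or more on that chromosome. These 3 blocks were picked after their values were seen, and each was richer in close peaks than its chromosome. A lower share without them was therefore bound to follow, and only its size is described. Among 398 blocks of 5 Mb that held 10 or more peaks, the next highest share was 53.3% and the median 5.26%. The close peaks of the block on chromosome 7 were narrow and low, with a median width of 1367 bp and a median score of 182, and 1 peak scored 3100. Without that block, 36 of the 583 peaks of chromosome 7 were close (6.17%, exact 95% interval 4.36 to 8.45%).

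The windows of 1 Mb with the most close peaks began at 112000001 on chromosome 10 (11 of 16 peaks) and at 1000001 on chromosome 19 (11 of 39), followed by the windows from 81000001 on chromosome 7 (9 of 11) and from 74000001 on chromosome 12 (9 of 16). Of the 356 windows with a close peak, 275 held 2 or 3 of them and 77 held 4 or more. These 77 windows together held 387 of the 959 close peaks. In 10 equal parts of each chromosome, the share of close peaks lay between 5.95 and 10.8%. It was 9.36% in the first part and 8.30% in the last. The highest share, in part 6, includes the block from 80000001 to 85000000 on chromosome 7, where 28 of 33 peaks were close. The share of part 6 without that block was not taken, so 10.8% cannot be read as a feature of position alone. Peaks at 2 to 10 kb were more frequent at both ends, with 18.9 and 18.7% against 11.2 to 15.5% between.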

How the data were processed

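The deposited peak list gives a chromosome, start, end, name and score for each Brpf2 peak of 1 library. Per the submitters' processing notes the tools were BWA, SAMtools and bedtools and the build was hg18, without versions or roles. The peak names carry the name of the caller MACS, whose version, settings and control library were not given in the sources used here. Each score is the authors' value per peak, on a scale the file does not state. Read depth is unknown, and no interval per peak can be given.

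A gap is the number of bases between neighbouring peaks; no peaks overlapped. The members and lists were chosen with earlier results of these data known. Regions were named by these rules: the 5 pairs each of smallest gap, highest lower score, largest width ratio and widest span, the 3 links on each side of the limit, up to 8 runs of 4 or more, the 3 widest runs of 3, and the extreme chromosomes and windows. Larger means wider, with ties broken by score. Chromosome length was the end of the last peak. Shares have exact Clopper-Pearson intervals and medians exact binomial ones, from order statistics. Peaks were placed in windows by midpoint. Python 3.11.15, NumPy 2.4.6, pandas 2.3.3 and SciPy 1.17.1 were used, and the code was tested on simulated data. Alternatives were distances of 1 and 3 kb, peaks at or above the median score, all chromosomes, no chromosome 19, and the higher-scoring member as larger. Joining peaks within 250 bp, and leaving out 80 to 85 Mb of chromosome 7, were added after seeing the data.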

Additional observations from a re-analysis of the deposited data

How the results depend on the processing

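Of 65 alternative values, 42 stayed within the interval of the reported value or, for the number of close peaks, within 1.5 times it. The rest moved, and the causes were not tested beyond what each setting removes. The direction of some moves was bound to follow from the setting. Keeping only higher scores raises the median score, and a shorter or longer limit lowers or raises the median gap. Joining removes every gap up to 250 bp, which raises the median gap. With peaks at or above the median score alone, 131 were close, with a median gap of 838 bp, width of 3061 bp, score of 1209 and width ratio of 1.36. Runs of 3 or more then held 6.87% of them, dense windows 27.5%, and the wider member had the higher score in 67.2% of pairs and came first in 54.1%. After joining peaks within 250 bp, 572 regions were close, with a median gap of 912 bp, width of 2162 bp and width ratio of 1.63. Runs of 3 or more then held 12.6% and dense windows 23.6%. A limit of 1 kb gave a median gap of 205 bp, a width ratio of 1.94 and 15.3% in dense windows. A limit of 3 kb gave 659 bp, 18.3% in runs of 3 or more and 22% in dense windows. Without chromosome 19, dense windows held 14.1% of close peaks. The 14.6% given for all autosomal peaks includes chromosome 19, so it is not a like value for this setting. Without 80 to 85 Mb of chromosome 7, runs of 3 or more held 13.2%. No paired analysis was possible because the result comes from no test and there is 1 library. Depth is unknown, so peaks missed in the gaps cannot be counted.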

Other observations

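Close peaks were also counted on the sex chromosomes of the list, which the rule leaves out. On chromosome X, 33 of 350 peaks were close (9.43%, exact 95% interval 6.58 to 13.0%), with a median width of 1374 bp and a median score of 148. They had 17 gaps, of which 10 were 250 bp or less, with a median of 133 bp. On chromosome Y, 0 of 11 peaks were close, with an exact 95% interval from 0 to 28.5%, and 3 counts would make 27.3%.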
